A study of Mus musculus with 46 samples.

Results

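The oligoadenylate synthetase family of the mouse was followed through 8 gene expression tables. The members were the rows whose symbol was Oas1a, Oas1g, Oas1b, Oas1c, Oas2, Oas3, Oasl1 or Oasl2, 8 of 24537 genes, and each was found in every table. Oligoadenylate synthetases are antiviral enzymes that bind double-stranded RNA and then join ATP into short oligoadenylates. These lead to the cutting of cellular and viral RNA. Their genes are classical interferon-stimulated genes: type I interferon acts through its receptor IFNAR, JAK kinases and a transcription factor complex with IRF9, which binds an element in their promoters. Oas1a and Oas1g encode small synthetases, and Oas1b is the flavivirus resistance gene of mice, which is truncated in many laboratory strains. Oas1c is a further paralog of Oas1. Oas2 and Oas3 encode larger enzymes with repeated synthetase units. The Oasl genes encode synthetase-like proteins with ubiquitin-like ends, and mouse Oasl1 is known to repress translation of Irf7.

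The series examined loss of Arid1a, which encodes a DNA-binding part of SWI/SNF remodelling complexes, by RNA sequencing in 42 libraries with gene values, 2 in each of 21 groups. B16F10 mouse melanoma cells with the genotype sgArid1a or sgScramble, the control guide, were grown as subcutaneous tumors to day 15 or cultured untreated. Untreated cultures of the genotypes sgArid1a/sgCgas and sgArid1a/sgSting, called Cgas dKO and Sting dKO, were sequenced with them; both double knockouts carry the Arid1a guide, and no sgScramble culture with Cgas or Sting lost was analysed here. The labels name the cell lines of these 4 libraries B16F11 to B16F14. Further sgArid1a cultures received an anti-IFNAR antibody for 72 h, or ruxolitinib, a JAK kinase inhibitor, for 72 h beside sgArid1a and sgScramble cultures in DMSO. Cultures of the sgScramble genotype received BD98, a compound the labels name by its code, BD98 with anti-IFNAR, or DMSO, each for 72 h. Another experiment labelled sgArid1a and sgScramble cultures as given murine IFN gamma for 24 h or PBS. The remaining groups were MC38 colon cancer cells with sgArid1a or sgScramble, and mouse embryonic fibroblasts (MEFs) from Arid1a fl/fl mice, either Arid1a -/- at day 5 after tamoxifen or wild type (WT) at day 5 after ethanol. The labels do not give the Cre driver of the MEFs, do not say whether a guide line was 1 clone, and do not say whether replicates were separate cultures or animals, so p-values measure the spread between these libraries, which may be technical.

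The B16F10 libraries carried melanocyte markers throughout, and the MEFs carried fibroblast markers. In MC38 cells all 8 epithelial markers examined were low and 4 of them (Epcam, Krt19, Cldn3 and Cdx2) were listed at 0. Depth was 31.6 to 38.8 M reads per library in tumors, 8.7 to 22.8 M in untreated, double-knockout and anti-IFNAR cultures, 14.4 to 20.3 M in the ruxolitinib experiment, 16.1 to 30.3 M in the BD98 experiment, 13 to 13.9 M in MC38 cells, 11 to 21.9 M in MEFs and 27.2 to 31.2 M in the IFN gamma experiment (M, 1e6 reads). Except in the BD98 experiment, values are the authors' log2 expression values, normalised within a table, on which low genes are drawn together; for most members a log2 difference on this scale is smaller than that in the authors' deposited table, which is given beside most results. A member was tested when its mean over the table was at least 4 on this scale, and it passed at an adjusted p under 0.05. Arid1a itself was lower by guide or deletion in tumors (difference -0.32 ± 0.07 (SE), adjusted p = 0.0031), untreated cultures (-0.58 ± 0.11, adjusted p = 0.0043), MC38 cells and MEFs.

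All members lie on chromosome 5. In mm10 coordinates as the files give them, Oasl2 (114896934 to 114912245, plus strand) and Oasl1 (114923240 to 114937911, plus strand) stand 10994 bases apart. Some distance downstream lie Oas2 (120730333 to 120749848, minus strand), Oas3 (120753098 to 120777659, minus strand), Oas1c (120800199 to 120812514, minus strand), Oas1b (120812635 to 120824160, plus strand), Oas1g (120876142 to 120887613, minus strand) and Oas1a (120896257 to 120907525, minus strand). Oas1b and Oas1c point away from each other with 120 bases between their starts. The promoter table of RefSeq (GRCm38.p6; 300 bases around each gene's start) held windows for 6 members, all but Oas1b and Oas2. The letters GAAA, any 2 bases and GAAA, the core of the element bound by interferon regulatory factors, were searched on both strands, and 4 of the 6 windows held a match, against 1131 of 32851 windows in the table (3.44%). The windows of Oasl1 and Oasl2 held no match. Stretches of the 4 windows with a match are shown because these members share the letters. Capitals mark the matched letters and sequences run 5′ to 3′ on the strand of the gene.
Oas1a, chr5:120907526-120907565, minus strand: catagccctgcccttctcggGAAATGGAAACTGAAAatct
Oas1g, chr5:120887614-120887651, minus strand: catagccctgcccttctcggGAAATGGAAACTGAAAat
Oas1c, chr5:120812593-120812634, minus strand: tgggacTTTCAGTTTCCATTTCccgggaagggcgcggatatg
Oas3, chr5:120777705-120777754, minus strand: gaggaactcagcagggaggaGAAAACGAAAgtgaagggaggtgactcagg
Oas1a and Oas1g held the same 16 bases, formed by 2 overlapping matches, from 20 to 5 bases before the start of Oas1a and from 18 to 3 bases before that of Oas1g. Oas1c held the reverse complement of these 16 bases from 114 to 99 bases before its own start. That places the block 7 bases before the start of Oas1b, in the interval between these genes. The letters TTCNNNGAA, of the gamma-activated sequence of interferon-responsive promoters, were found in 1 member window, that of Oas1a, and in 8.30% of all windows. Because Oas1a, Oas1g and Oas1c hold the same block, the 4 windows with a GAAA match are not independent of each other. The matches are letters in these windows and were not tested for binding here.

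The sequences also set how far the members can be told apart. Of the 31-base words in the GENCODE transcripts of Oas1a, 68.7% also occur in Oas1g, and 54.6% of those of Oas1g occur in Oas1a, so reads of this pair could be split between them in counting. Oas1c shared 25.2% of its words with other genes, chiefly Oas1e, Oas1d and the antisense gene Gm43069, which overlaps 9.4% of its exonic bases. The share was 6.7% for Oas1b, 2.3% for Oas3, 1.2% for Oasl2, 0.4% for Oasl1 and 0.0% for Oas2. No setting for strand is recorded in the file headers for a stranded library kit. None of the 4 other Oas1 paralogs (Oas1d, Oas1e, Oas1f and Oas1h) reached the test in any table.

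In tumors all 8 members rose with the Arid1a guide. The largest rise was that of Oas2, and Oasl2, Oas3, Oas1b, Oasl1, Oas1a, Oas1g and Oas1c followed in falling order. Of the 13895 genes tested, 26.0% were higher by the same test; the members' median difference was 0.53, against -0.02 for all genes. Oas2 stood at 8.996 and 9.05 in the sgArid1a tumors, against 7.54 and 7.48 in the sgScramble tumors, a difference of 1.52 ± 0.07 (SE; limma adjusted p = 9.6e-09). The authors' deposited table gives a log2 fold change of 2.14 for Oas2. Oasl2, the synthetase-like gene with the highest values here, stood at 9.48 and 9.55 in sgArid1a tumors, against 8.46 and 8.10 in sgScramble tumors (1.23 ± 0.10, limma adjusted p = 1.1e-06). The sgScramble tumors differed from each other in Oasl2 by more than the sgArid1a tumors did. The groups did not overlap in any member, and the share of all genes without overlap was not computed.

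Oas3, whose long enzyme is regarded as the main maker of oligoadenylates in human cells, stood at 6.38 and 6.46 in sgArid1a tumors, against 5.78 and 5.77 in sgScramble tumors (0.65 ± 0.06, limma adjusted p = 5.3e-06). Among the Oas1 paralogs, Oas1b stood at 7.08 and 7.17 in sgArid1a tumors, against 6.47 and 6.63 in sgScramble tumors (0.57 ± 0.08, limma adjusted p = 6e-05). Oas1a, the most abundant member per kilobase, had a smaller difference of 0.42 ± 0.08, with 9.04 and 9.05 in sgArid1a tumors, against 8.70 and 8.54 in sgScramble tumors. Oas1g and Oas1c had the smallest, at 0.33 ± 0.07 and 0.24 ± 0.07 (limma adjusted p = 0.002 and 0.013). The authors' deposited table gives 1.73 for Oas3, 1.14 for Oas1b, 1.01 for Oasl1, 0.55 for Oas1a and 0.45 for Oas1c, the last with an adjusted p of 0.11 in that table. Oas1c also lost its call without sgArid1a tumor replicate 1, and its adjusted p lay between 0.0073 and 0.095 over the alternatives.

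Expressed per kilobase of gene model, the tumor levels also changed their order. In sgArid1a tumors Oas1a (mean log2 level per kilobase 8.13) was followed by Oasl2 (7.87), Oas2 (7.08) and Oas1b (6.25), while Oas1c, Oas1g and Oasl1 lay between 6.03 and 6.12 and overlapped with their neighbours, and Oas3 was lowest at 4.19. In sgScramble tumors Oas1a (7.71) and Oasl2 (6.64) led as well, but Oas1c came next at 5.87 and Oas2 stood sixth at 5.56, overlapping with Oasl1. Thus Oas2 held rank 3 in sgArid1a tumors and rank 6 in sgScramble tumors by level per length.

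Some interferon signalling genes and markers of other cell types moved with the family in the tumors. Of 10 genes of type I interferon signalling tested, 5 were higher and 0 lower, against 26.0% of all genes that were higher. Irf1 differed by 1.004, Irf7 by 0.94, Stat2 by 0.65 and Irf9 by 0.51. Macrophage markers rose as well: 11 of 13 were higher and 0 lower, their summed log2 level was 14.96 to 14.99 in sgArid1a tumors, against 14.09 to 14.13 in sgScramble tumors, and 0 of them were listed at 0. Skeletal muscle markers were higher in 7 of 7, with a summed level of 13.25 to 13.26 in sgArid1a tumors and 10.31 to 10.40 in sgScramble tumors. T cell markers were higher in all 4 tested of 7 (8.74 to 8.79 in sgArid1a tumors, 8.40 to 8.48 in sgScramble tumors), dendritic cell markers in 6 of 8 tested (9.33 to 9.40 and 9.01 to 9.05), cytotoxic and NK cell markers in 4 of 4 tested (7.10 to 7.12 and 6.74 to 6.77), and endothelial markers in 5 of 6, with 1 lower. Melanocyte markers were higher in 1 and lower in 4 of 8, with a summed level of 19.23 to 19.24 in sgArid1a tumors and 19.66 to 19.68 in sgScramble tumors, and both tested neutrophil markers were lower. Fibroblast markers were higher in 3 and lower in 3 of 8, B cell markers higher in 1 and lower in 1 of 2 tested, and epithelial markers lower in 1 of 3 tested, while no keratinocyte marker reached the test and Krt14 and Krt1 were listed at 0. In such bulk samples fewer cells of a type and less RNA per cell cannot be told apart, and the part of these cell types in the rise of the family was not tested.

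**Figure D1:**
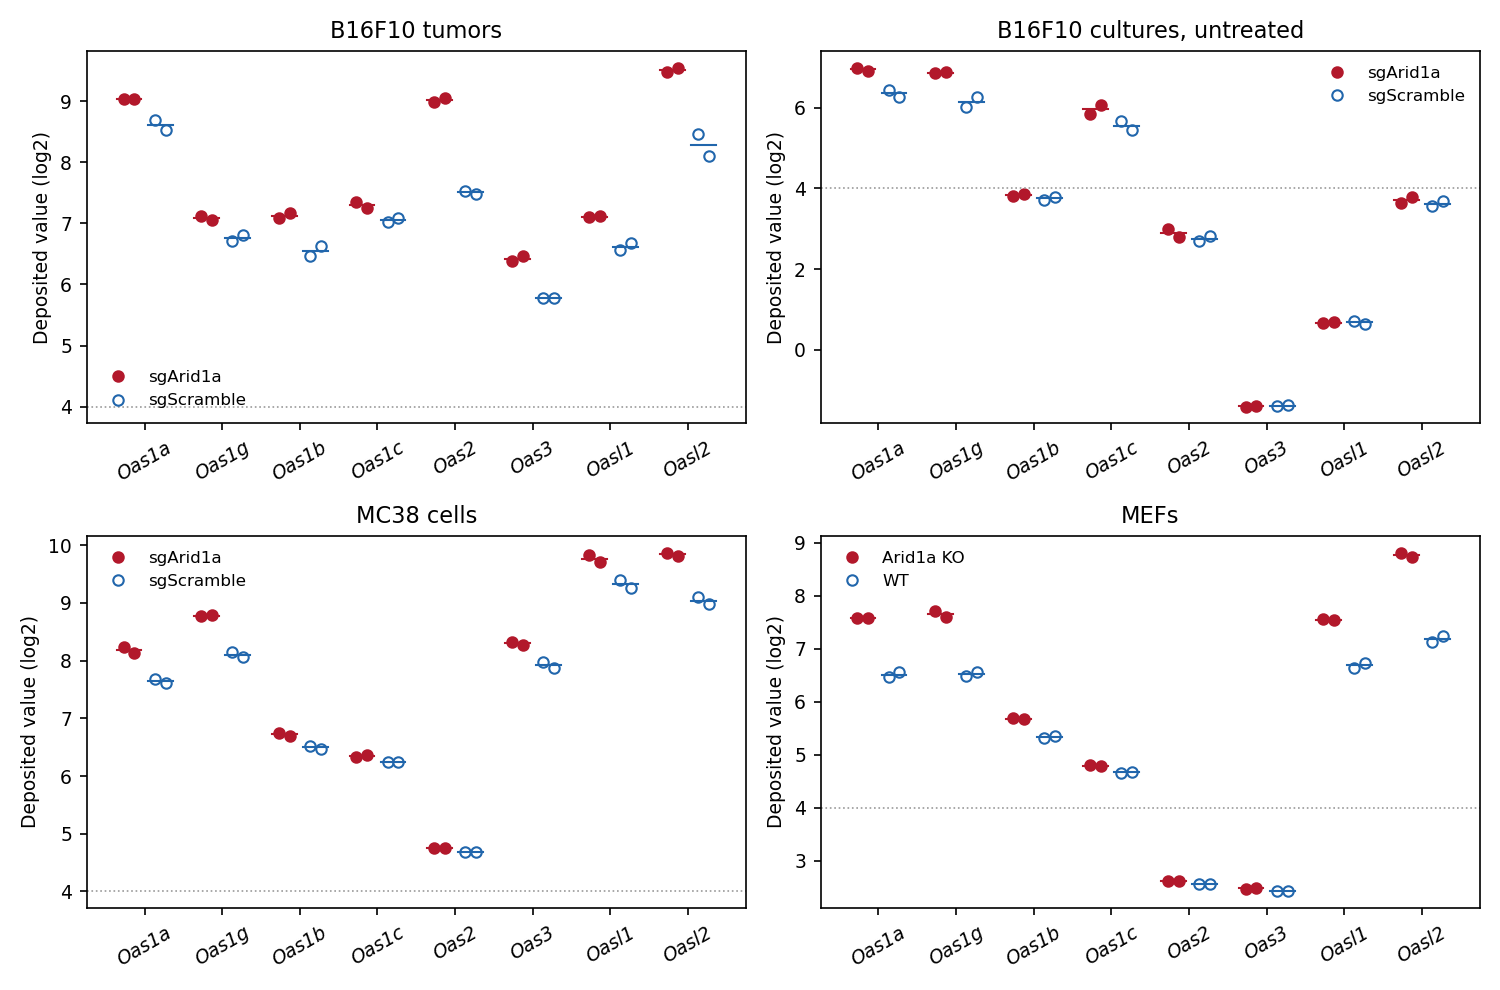
Deposited log2 value (vertical axes) of each member (horizontal axes) in every library of the tumors, untreated B16F10 cultures, MC38 cells and MEFs; filled points are Arid1a loss, open points the controls, short lines group means, and the dotted line at 4 marks the level needed for a test. In tumors and MC38 cells all 8 members are above the line and higher with Arid1a loss, whereas in untreated B16F10 cultures only Oas1a, Oas1g and Oas1c are above it.

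Fewer members reached the level for a test in the untreated B16F10 cultures than in tumors. Other B16F10 cultures had 4 tested members (ruxolitinib experiment) or 6 (IFN gamma experiment, with Oasl2 at 6.33 under the labels sgScramble and PBS). These tables were normalised separately and differed in depth, so the numbers of members tested were not compared. In untreated cultures Oas1a, Oas1g and Oas1c were tested, and all 3 were higher with sgArid1a, against 5.84% of the 11604 genes tested that were higher. Oas1a stood at 6.99 and 6.92 in sgArid1a cells, against 6.44 and 6.26 in sgScramble cells (0.60 ± 0.11, limma adjusted p = 0.0033). Oas1g stood at 6.85 and 6.87 in sgArid1a cells, against 6.03 and 6.27 in sgScramble cells (0.71 ± 0.14, limma adjusted p = 0.0051). Oas1c stood at 5.84 and 6.06 in sgArid1a cells, against 5.66 and 5.44 in sgScramble cells (0.40 ± 0.12, limma adjusted p = 0.046). No member's groups overlapped among these 3, and the rise of Oas1c, the smallest, lost its call in 7 of 10 alternative settings, with adjusted p between 0.026 and 0.32. In the anti-IFNAR table, where the same libraries were normalised with others, the differences were 0.35 ± 0.07 for Oas1a and 0.40 ± 0.06 for Oas1g, both past the test, and 0.20 ± 0.07 for Oas1c, which did not pass. The settings in which Oas1c lost its call include leaving out sgArid1a replicate 1, sgArid1a replicate 2 or sgScramble replicate 2. The authors' deposited table gives log2 fold changes of 0.98 for Oas1a, 1.06 for Oas1g and 0.84 for Oas1c, the last with an adjusted p of 0.13.

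The other 5 members were too low to test in untreated B16F10 cells. Oas1b averaged 3.83 in sgArid1a cells and 3.75 in sgScramble cells, and Oasl2 averaged 3.71 and 3.62 in the same order of genotypes. Oas2, Oasl1 and Oas3 lay lower still, Oas3 at -1.39 in sgArid1a cells and -1.38 in sgScramble cells. Of 10 genes of type I interferon signalling tested, 4 were higher and 0 lower in sgArid1a cells, with Irf9 at 0.66, Irf7 at 0.33 and Irf1 at 0.84. Ifnb1 was not among those tested. Pde12 and Akap7, phosphodiesterases that degrade oligoadenylates, and Abce1, an inhibitor of the pathway, did not pass the test. Markers of macrophages were near absent in these cultures, with 12 of 13 low and C1qb, C1qc, Cx3cr1, Fcgr1 and Itgam listed at 0; their summed log2 level was 5.43 to 5.52 in sgArid1a cells and 5.69 to 5.79 in sgScramble cells. Melanocyte markers were lower in 3 of 8 and higher in 0, with a summed log2 level of 18.21 to 18.31 in sgArid1a cells and 18.48 to 18.56 in sgScramble cells, and their part in the result was not tested.

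The same contrast was made in the DMSO cultures of the ruxolitinib experiment. Of 4 members tested, Oas1a alone passed, with 5.45 and 5.41 in sgArid1a cells, against 5.26 and 5.21 in sgScramble cells (0.19 ± 0.05, limma adjusted p = 0.035); 3.50% of the 11783 genes tested were higher. Oas1c (0.22 ± 0.06, limma adjusted p = 0.064), Oasl2 (0.15 ± 0.04, limma adjusted p = 0.067) and Oas1b (0.01 ± 0.05, limma adjusted p = 0.91) did not pass. Without either sgArid1a DMSO library 0 members were called, and without sgScramble DMSO replicate 1 there were 2; the call of Oas1a also ended without sgScramble DMSO replicate 2. The authors' deposited table gives Oas1a 0.89 with an adjusted p of 0.062 and Oasl2 1.02 with an adjusted p of 0.099. Arid1a was 0.26 lower in these sgArid1a cells and did not pass the test (limma adjusted p = 0.23), whereas Irf9 (0.43) and Irf1 (0.36) did. Of 10 genes of type I interferon signalling tested, 3 were higher and 0 lower.

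Loss of Cgas, which encodes the sensor of cytosolic DNA, or of Sting, which encodes its membrane adaptor, was set against the Arid1a guide alone to ask whether the sensing pathway bears on these genes. All 3 tested members fell in both double knockouts; 16.5% of genes were lower in Cgas dKO and 17.9% in Sting dKO by the same test. Oas1g fell furthest, to 5.42 and 5.25 in Cgas dKO cells and to 5.57 and 5.18 in Sting dKO cells, against 6.85 and 6.87 in sgArid1a cells. The differences were -1.53 ± 0.14 (limma adjusted p = 2.1e-06) for Cgas dKO and -1.49 ± 0.14 (limma adjusted p = 2.7e-06) for Sting dKO. Oas1a fell to 5.87 and 5.86 in Cgas dKO cells and to 5.96 and 5.90 in Sting dKO cells, against 6.99 and 6.92 in sgArid1a cells (-1.08 ± 0.11 and -1.02 ± 0.11). Oas1c differed by -0.74 ± 0.12 in Cgas dKO cells and by -0.70 ± 0.12 in Sting dKO cells (limma adjusted p = 0.00048 and 0.00078). No library of either double knockout overlapped with sgArid1a in these genes. In the authors' deposited table the log2 fold changes against sgArid1a are -2.93 and -2.92 for Oas1g, -1.92 and -1.81 for Oas1a, and -1.70 and -1.61 for Oas1c.

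The double knockouts also had lower values of Oas1g and Oas1a than sgScramble cells. Against sgScramble, which shares the double-knockout libraries with the contrast above, Oas1g differed by -0.81 ± 0.14 in Cgas dKO cells and -0.77 ± 0.14 in Sting dKO cells (limma adjusted p = 0.00046 and 0.00065), and Oas1a by -0.48 ± 0.11 and -0.42 ± 0.11 (limma adjusted p = 0.0032 and 0.0072). The authors' deposited table gives -1.84 and -1.80 for Oas1g and -0.92 and -0.82 for Oas1a in these contrasts. Oas1c passed in Cgas dKO cells (-0.34 ± 0.12, limma adjusted p = 0.037) and did not in Sting dKO cells (-0.29 ± 0.12, limma adjusted p = 0.065); the call in Cgas dKO cells was lost in 7 alternative settings, among them those without sgScramble replicate 1 or either Cgas dKO library. In these contrasts 21.9% of genes were lower in Cgas dKO and 22.1% in Sting dKO. Without 1 of the Sting dKO libraries Oas1a lost its call in the contrast with sgScramble, which left 1 member, and without sgScramble replicate 2 Oas1c gained one. Oas1b, below the level for a test, was not lower in its values, with 3.95 and 3.92 in Cgas dKO cells and 3.97 and 3.80 in Sting dKO cells, against 3.80 and 3.86 in sgArid1a cells. Oas2, Oas3, Oasl1 and Oasl2, also too low to test, overlapped with sgArid1a cells in both double knockouts. Oasl2 averaged 3.64 in Cgas dKO, 3.73 in Sting dKO and 3.71 in sgArid1a cells, and Oas2 averaged 2.81, 2.80 and 2.89. The falls above are thus those of Oas1 paralogs. Other interferon genes did not all move as these paralogs did: against sgScramble, Irf1 was higher by 0.49 in Cgas dKO and 0.56 in Sting dKO cells, both past the test. Against sgArid1a, Irf9 was lower in both (-0.40 each). Melanocyte markers moved with the contrasts against sgScramble: 4 of 8 were lower in Cgas dKO and 5 of 8 in Sting dKO cells, 1 was higher in each, and the summed log2 level was 18.06 to 18.09 in Cgas dKO, 18.08 to 18.11 in Sting dKO and 18.48 to 18.56 in sgScramble cells. Of 3 fibroblast markers tested, 2 were lower in each double knockout, with summed log2 levels of 8.30 to 8.57 in Cgas dKO, 8.06 to 8.15 in Sting dKO and 8.43 to 8.57 in sgScramble cells, and Dcn and Thy1 were listed at 0. The part of either list in the result was not tested.

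Expression of the targeted genes was only partly in step with the genotypes. Arid1a stood at 11.03 and 10.74 in Cgas dKO cells and 10.71 and 10.83 in Sting dKO cells, against 10.43 and 10.39 in sgArid1a cells and 10.90 and 11.08 in sgScramble cells. It was thus higher in both double knockouts than in sgArid1a cells (0.47 and 0.36, limma adjusted p = 0.006 and 0.024). Mb21d1, the gene of cGAS, did not differ measurably in Cgas dKO cells (0.00, limma adjusted p = 0.99), and Tmem173, the gene of STING, was lower in Sting dKO cells (-0.54, limma adjusted p = 0.0015). Protein was not measured here, and the directions above belong to the libraries labelled as double knockouts; the part of the Arid1a level in them was not tested.

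**Figure D2:**
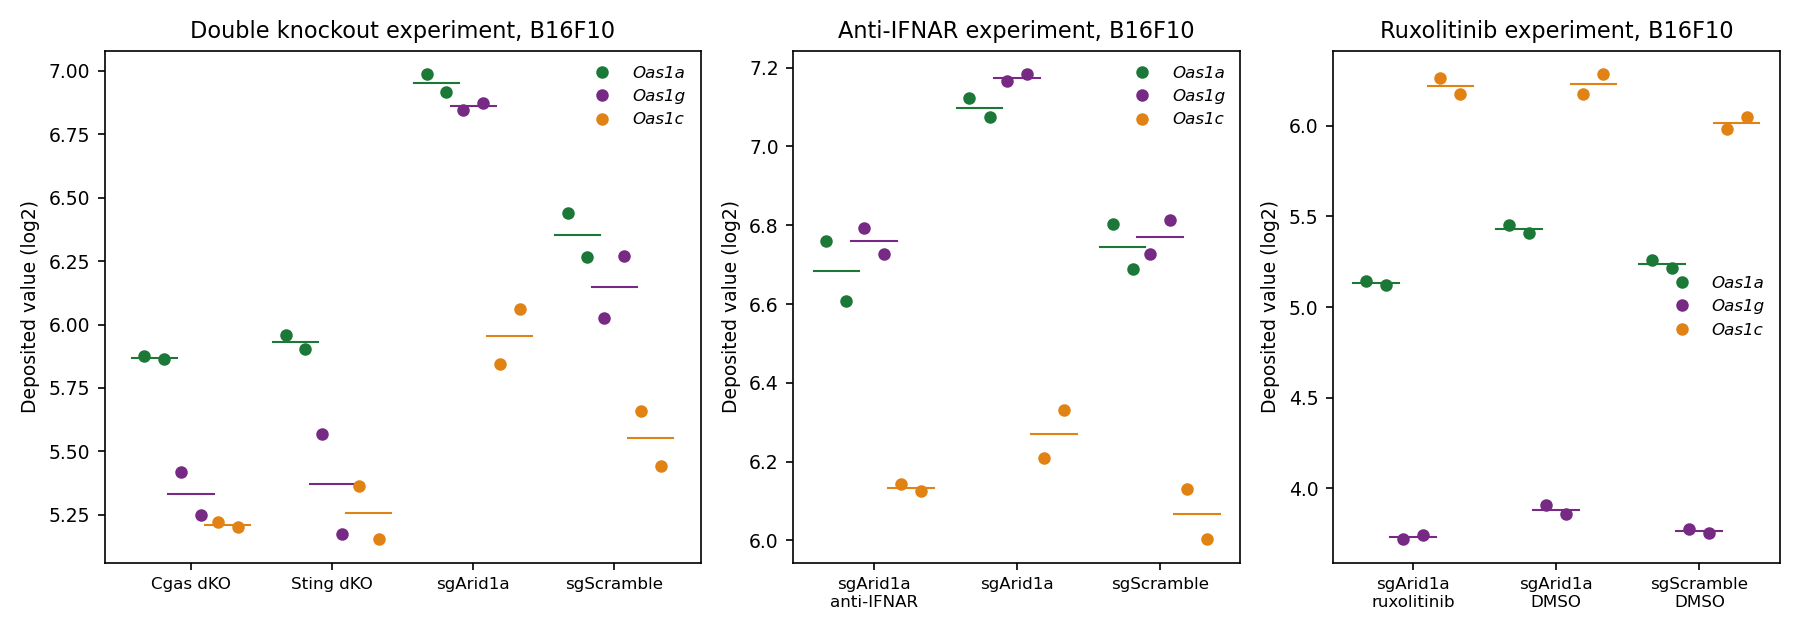
Deposited log2 values (vertical axes, not starting at 0) of Oas1a, Oas1g and Oas1c in every library of the double-knockout, anti-IFNAR and ruxolitinib experiments; horizontal axes give the groups, points are libraries and short lines group means. The double knockouts lie below both sgArid1a and sgScramble cells, and anti-IFNAR cells lie near sgScramble cells for Oas1a and Oas1g.

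Blocking the interferon receptor in sgArid1a cells gave lower values of Oas1a and Oas1g that did not pass the test across all genes. With anti-IFNAR, Oas1a stood at 6.76 and 6.61, against 7.12 and 7.08 in untreated sgArid1a cells, a difference of -0.42 ± 0.07 (limma, adjusted p = 0.18). Oas1g stood at 6.79 and 6.73 with anti-IFNAR, against 7.17 and 7.18 without (-0.42 ± 0.06, limma, adjusted p = 0.14). The groups did not overlap for either gene, nor for Oas1c, whose difference was -0.14 (adjusted p = 1). Thus 0 of 3 tested members were called by limma, in a contrast where 2 of 11686 genes, or 0.0171%, passed at the same adjusted level. Unadjusted, 2 of the 3 had a limma p under 0.05, and the share of all genes below that unadjusted level was not computed. When only the 2 groups compared were fitted, Oas1a and Oas1g passed (lowest adjusted p 0.012 and 0.0066), and over all alternatives their adjusted p ranged up to 1. The authors' deposited table gives Oas1a -1.13 (adjusted p = 1.8e-06) and Oas1g -1.09 (adjusted p = 1.2e-07). Irf9, a part of the interferon-activated transcription factor complex, fell (-0.60, limma adjusted p = 0.023). The untreated sgArid1a cells carry no label of a control antibody or of 72 h in culture, so the antibody and the time in culture cannot be told apart.

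Set against sgScramble, anti-IFNAR sgArid1a cells differed by -0.06 in Oas1a, -0.01 in Oas1g and 0.07 in Oas1c. None of the 3 passed by limma, in a contrast where 12.7% of all genes tested passed at the same adjusted level. Unadjusted, 0 of the 3 had a limma p under 0.05, and the share of all genes at that level was not computed. The values without antibody in sgScramble cells were 6.80 and 6.69 for Oas1a, 6.73 and 6.81 for Oas1g and 6.13 and 6.002 for Oas1c. The anti-IFNAR libraries overlapped with these for all 3 genes.

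Ruxolitinib lowered Oas1a in sgArid1a cells, the single call among 4 members tested, where 0.195% of genes were lower. Oas1a stood at 5.14 and 5.12 with ruxolitinib, against 5.45 and 5.41 in sgArid1a cells with DMSO (-0.30 ± 0.05, limma adjusted p = 0.028). This call was lost in 8 of 9 alternatives, among them each of the fits without 1 of the 4 libraries compared, with adjusted p between 0.015 and 0.41. Oasl2 stood at 4.56 and 4.50 with ruxolitinib, against 4.70 and 4.69 with DMSO, and did not pass (-0.17 ± 0.04, limma adjusted p = 0.41). Oas1b (-0.06) and Oas1c (-0.01) were near 0. Oas2, below the level for a test, stood at 3.70 and 3.71 with ruxolitinib, against 3.90 and 3.86 with DMSO, without overlap. The log2 fold changes in the authors' deposited table are -3.72 for Oas2 (adjusted p = 6.7e-06), -2.0 for Oas1g (0.0057), -1.69 for Oas1a (1.1e-05), -1.28 for Oasl2 (0.023) and -0.04 for Oas1c (1). Irf9 was also lower by limma (-0.74). Macrophage markers moved with this contrast: of 4 tested, 2 were higher with ruxolitinib and 0 lower, the summed log2 level of all 13 was 8.22 to 8.44 with ruxolitinib and 7.86 to 7.89 with DMSO, 9 of the 13 were low and Cx3cr1 was listed at 0, and their part in the result was not tested.

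Against sgScramble cells with DMSO, none of the 4 members passed by limma in ruxolitinib-treated sgArid1a cells, where 15.5% of genes passed at the same adjusted level. Unadjusted, 1 member, Oas1c, had a limma p under 0.05, and the share of all genes at that level was not computed. Oas1a differed by -0.10 (limma adjusted p = 0.17) and Oas1c by 0.21 (limma adjusted p = 0.052). Without sgScramble DMSO replicate 2, 1 member was called. The authors' deposited table gives Oas2 -3.23 in this contrast, with an adjusted p of 0.00029.

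BD98 was given to cells of the control genotype, so it shows the family with Arid1a unedited, and this table holds counts, tested with edgeR. All 6 members tested were higher with BD98 than with DMSO, against 24.5% of 12843 genes; the members' median log2 fold change was 2.65, and that of all genes 0.01. Oasl2 had 83 and 130 counts with BD98, against 25 and 11 with DMSO, or 6.36 and 9.32 CPM (counts scaled to library size) against 1.06 and 0.733 CPM (log2 fold change 2.96 ± 0.31 (SE), adjusted p = 9.2e-09). Oas1b had 72 and 111 counts with BD98 and 14 and 19 with DMSO (2.83 ± 0.33, adjusted p = 5.7e-08). Oas1g (2.68 ± 0.36), Oas2 (2.62 ± 0.43) and Oas1a (2.20 ± 0.25) followed. Oas1a had 9.19 and 8.61 CPM with BD98, against 1.44 and 2.27 CPM with DMSO, and Oas1c changed least, by 1.72 ± 0.25, with 5.75 and 6.38 CPM with BD98 against 1.61 and 1.80 CPM with DMSO. Groups of all these genes were separate.

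The remaining members were nearly silent in this experiment. Oas3 had 5 and 9 counts with BD98 and 0 and 0 with DMSO. Set against a floor of 3 counts over both DMSO libraries, its counts with BD98 were 6.68-fold higher. This value leaves out the counting error of the BD98 libraries, and Oas3 was not tested. Oasl1 had 0 and 8 counts with BD98 and 3 and 2 with DMSO, with no separation of the groups. A floor of 3 counts in 1 library corresponded to 0.127 to 0.230 CPM, for counting error only.

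Adding anti-IFNAR to BD98 lowered 5 of the 6 members against BD98 alone, where 1.39% of genes were lower. Oas2 fell to 12 and 18 counts with BD98 and anti-IFNAR, against 34 and 67 with BD98 (-2.24, edgeR adjusted p = 0.0015). Oas1a fell to 48 and 48 counts, against 120 and 120 with BD98 (-1.82, edgeR adjusted p = 1.5e-05). Oas1g (-2.06), Oas1b (-1.90) and Oasl2 (-1.82) fell by similar amounts, whereas Oas1c, with 59 and 77 counts against 75 and 89 with BD98, did not pass (-0.78, edgeR adjusted p = 0.094). These results, unlike those of the antibody in sgArid1a cells, had a matched 72 h arm, but here too no group carries a label of a control antibody. Whether the effects of the antibody differed between the experiments was not tested.

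Relative to DMSO, cells with both agents retained part of the rise in some members. Oasl2 (1.14, edgeR adjusted p = 0.0098), Oas1c (0.95, 0.004) and Oas1b (0.93, 0.047) were higher, while Oas1a (0.38, 0.29), Oas1g (0.62, 0.25) and Oas2 (0.38, 0.59) did not pass; 23.4% of genes were higher. Without DMSO replicate 1 only Oasl2 was called, and without replicate 2 of BD98 with anti-IFNAR only Oas1c. Oas1b also lost its call without replicate 1 of BD98 with anti-IFNAR, and Oasl2 without DMSO replicate 2. Interferon signalling genes moved in both directions: BD98 raised Irf7 (3.23), Irf9 (1.95), Stat2 (1.49), Irf1 (0.81) and Irf3 (0.36) and lowered Ifnar1 (-0.41), Jak1 (-0.40) and Ifnar2 (-0.24), and anti-IFNAR lowered Irf7 (-2.23), Irf9 (-1.56) and Stat2 (-0.79). In the oligoadenylate pathway Pde12 (0.31) and Abce1 (0.19) were higher with BD98 and Akap7 was lower (-0.82). Arid1a itself was lower with BD98 (-0.48), and all 8 melanocyte markers were lower, with a summed log2 CPM of 13.42 to 13.50 with BD98 and 15.02 to 15.04 with DMSO; the part of either in the rise of the family was not tested.

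**Figure D3:**
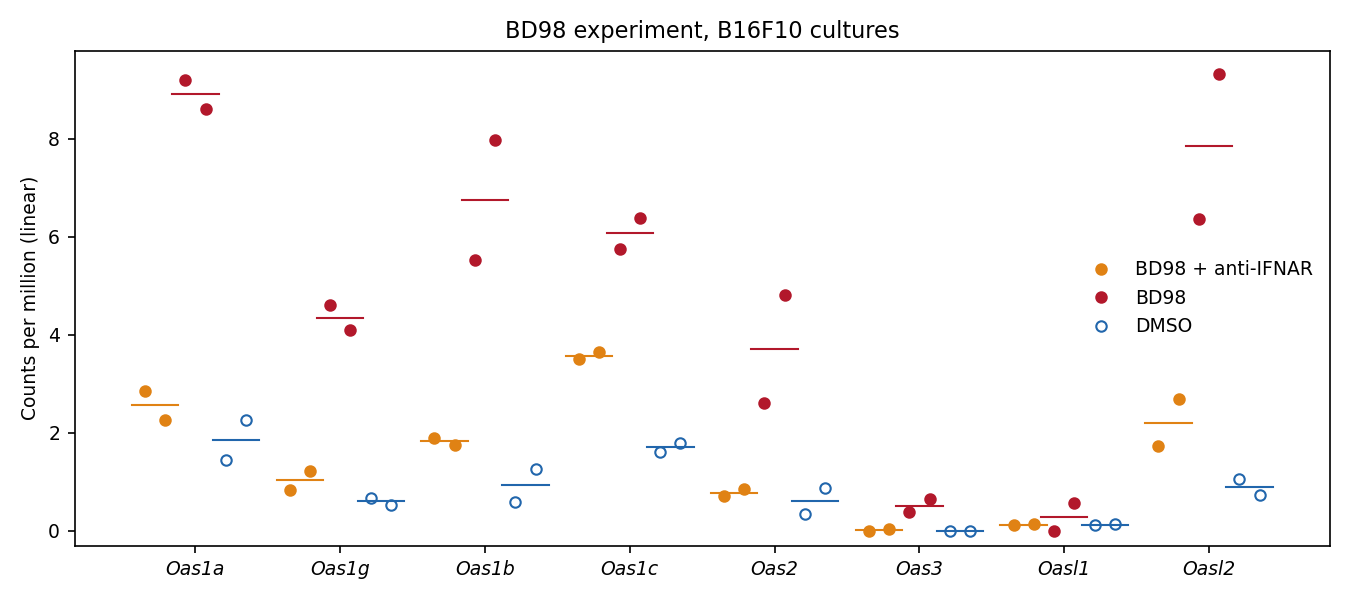
CPM (vertical axis, linear) of each member (horizontal axis) in B16F10 cells with BD98 and anti-IFNAR, BD98, or DMSO for 72 h; points are the 2 libraries of a group and short lines their means. BD98 libraries stand above the DMSO libraries for every member but Oasl1, and with anti-IFNAR added Oas1c stands at 3.51 and 3.64 CPM.

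In MC38 cells all 8 members were again higher with sgArid1a, against 8.33% of 11516 genes. Oasl2 stood at 9.87 and 9.81 in sgArid1a cells, against 9.11 and 8.98 in sgScramble cells (0.80 ± 0.04, limma adjusted p = 5e-18). Oas1g stood at 8.77 and 8.79 in sgArid1a cells, against 8.14 and 8.06 in sgScramble cells (0.67 ± 0.03, limma adjusted p = 5e-18), and Oas1a at 8.23 and 8.13 against 7.68 and 7.62 (0.53 ± 0.03). Oasl1 (0.45), Oas3 (0.37), Oas1b (0.22) and Oas1c (0.11) had smaller differences. Oas2 had the smallest, 4.75 and 4.75 in sgArid1a cells and 4.69 and 4.68 in sgScramble cells (0.07 ± 0.01, limma adjusted p = 6.5e-06), and lost its call in 1 alternative setting. Its level is low, and the authors' deposited table gives a log2 fold change of 2.10 for Oas2, close to the 2.13 of Oas1a in that table; the lowest there was Oasl1 at 0.86.

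The order of levels in MC38 cells was not that of the tumors. Per kilobase, Oasl1 led with a mean log2 level of 8.69 in sgArid1a cells and 8.25 in sgScramble cells, followed by Oasl2 (8.20 and 7.40), Oas1g (7.73 and 7.06) and Oas1a (7.27 and 6.74). Oas2 was last (2.78 and 2.71). In sgScramble cells Oas3 and Oas1b overlapped, and all other neighbours in the order were separate. Stat2 (0.46), Irf9 (0.45), Irf1 (0.14) and Irf7 (0.10) were higher and Jak1 lower, while Akap7 and Abce1 fell and Pde12 did not pass the test.

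In MEFs all 6 members tested were higher in Arid1a -/- MEFs, against 4.69% of 12184 genes, with a median difference of 0.97 for the members and -0.01 for all genes. Oasl2 stood at 8.81 and 8.73 in Arid1a -/- MEFs, against 7.12 and 7.23 in WT MEFs (1.60 ± 0.06, limma adjusted p = 5.2e-08). Oas1g stood at 7.71 and 7.60 in Arid1a -/- MEFs, against 6.49 and 6.57 in WT MEFs (1.13 ± 0.05, limma adjusted p = 2.2e-07). Oas1a followed at 1.07 ± 0.05, and Oasl1 at 0.86 ± 0.05 with 7.56 and 7.54 in Arid1a -/- MEFs against 6.65 and 6.74 in WT MEFs. These 4 genes made up the top of the family per kilobase in both genotypes. In WT MEFs the order was Oasl1, Oas1a, Oasl2 and Oas1g, and neighbours in it overlapped, while Oas1g lay below Oasl1 and Oas1a without overlap. In Arid1a -/- MEFs Oasl2 (7.13) stood above Oas1a (6.67), Oas1g (6.61) and Oasl1 (6.47) without overlap.

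The less abundant members of the MEFs moved less on the deposited scale. Oas1b differed by 0.34 ± 0.03 (limma adjusted p = 3.2e-05) and Oas1c by 0.12 ± 0.02 (limma adjusted p = 0.0051); Oas1c lost its call in 1 alternative setting. Oas2 and Oas3 were too low to test, at 2.63 and 2.62 (Oas2) and 2.48 and 2.48 (Oas3) in Arid1a -/- MEFs, against 2.56 and 2.57 (Oas2) and 2.43 and 2.43 (Oas3) in WT MEFs. The authors' deposited table gives 5.96 for Oas1g, 5.54 for Oas1a, 4.82 for Oasl2, 3.44 for Oas1b, 3.41 for Oasl1 and 1.68 for Oas1c, and for Oas2 6.05 with an adjusted p of 0.013. Irf7 (1.19), Irf9 (0.99), Stat2 (0.90) and Irf1 (0.27) were higher, and Pde12, Akap7 and Abce1 did not pass the test. In this design tamoxifen and loss of Arid1a cannot be told apart.

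**Figure D4:**
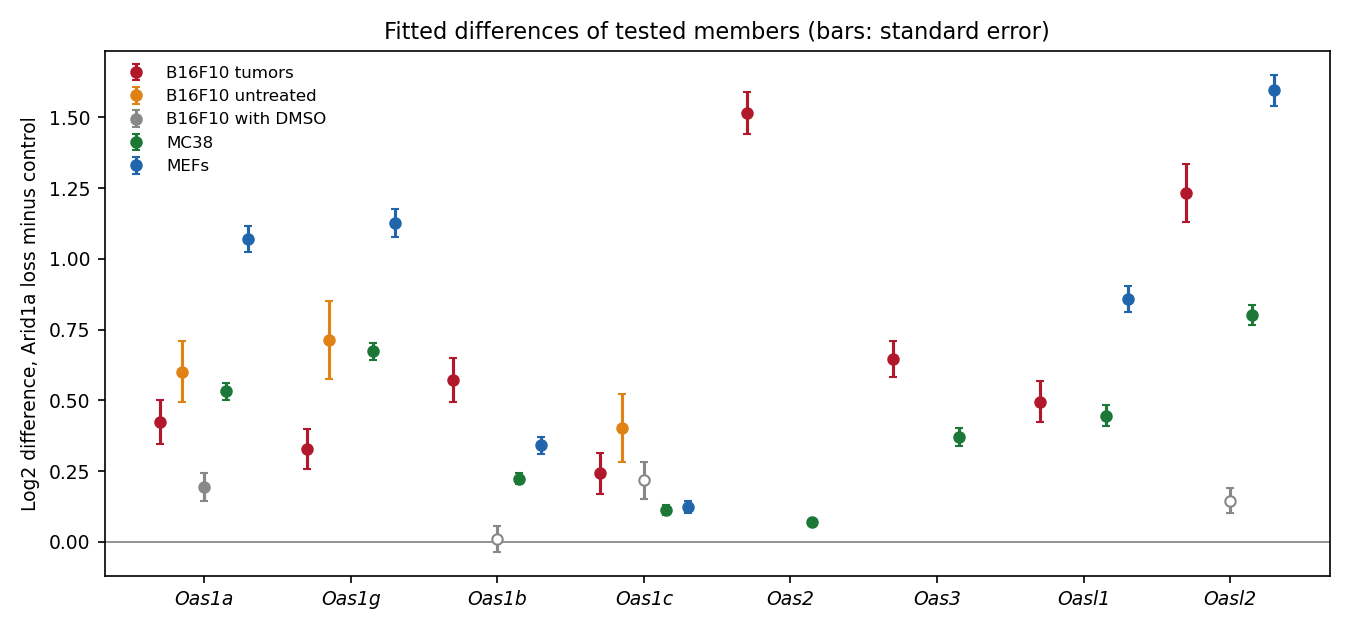
Fitted log2 difference, Arid1a loss minus control (vertical axis), of each tested member (horizontal axis) in tumors, untreated B16F10 cultures, B16F10 cultures with DMSO, MC38 cells and MEFs; bars are standard errors, filled points passed the test and open points did not. Oas2 differs by 1.52 in tumors and 0.07 in MC38 cells, and Oasl2 by 1.60 in MEFs. Low genes are drawn together on this scale, and the experiments were normalised separately, so sizes are not compared between them. The authors' deposited log2 fold changes of Oas2 are 2.14 in tumors and 2.10 in MC38 cells.

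The experiment labelled with IFN gamma is given by its labels, because 2 checks did not follow them. Arid1a did not differ by guide label, with 12.15 and 12.13 in libraries labelled sgArid1a IFN gamma, against 11.997 and 12.11 in those labelled sgScramble IFN gamma, and 12.25 and 12.40 in those labelled sgArid1a PBS, against 12.42 and 12.40 in those labelled sgScramble PBS. Irf1, a target of IFN gamma, stood at 13.04 and 12.97 in libraries labelled sgArid1a IFN gamma and 12.53 and 12.34 in those labelled sgArid1a PBS, against 10.13 and 10.07 in those labelled sgScramble IFN gamma and 9.81 and 9.81 in those labelled sgScramble PBS. Its values were thus separated far more by the guide label than by the treatment label. Arid1a instead followed the treatment label, lower with IFN gamma than with PBS by guide label sgArid1a (-0.18, limma adjusted p = 0.0051) and sgScramble (-0.35, limma adjusted p = 1.7e-05). If guide and treatment labels were exchanged, the guide and IFN gamma differences below would exchange their meaning; this was not tested, and directions belong to libraries so labelled.

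Among the libraries labelled PBS, 4 of 6 members were higher with the label sgArid1a, against 2.37% of 12357 genes: Oasl2 (0.69 ± 0.05), Oas1a (0.47 ± 0.05), Oas1b (0.20 ± 0.05) and Oas2 (0.11 ± 0.03). Without any 1 of the 4 libraries labelled PBS the number was 2. Among the libraries labelled IFN gamma 6 of 6 were higher, against 4.03% of genes. There Oasl2 stood at 7.80 and 7.73 under the label sgArid1a, against 6.37 and 6.37 under sgScramble (1.40 ± 0.05, limma adjusted p = 3e-13), followed by Oas1a (0.73), Oas1b (0.40), Oas1g (0.33), Oas2 (0.20) and Oas1c (0.17); without sgArid1a IFN gamma replicate 1, Oas1c lost its call. The authors' deposited table gives Oasl2 3.10 under PBS and 4.14 under IFN gamma, and Oas2 1.60 and 2.13.

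By treatment label, all 6 members were higher with IFN gamma among libraries labelled sgArid1a, where 20.9% of genes were higher, and 1 of 6, Oas1c (0.22 ± 0.04, limma adjusted p = 0.00021), among those labelled sgScramble, where 15.7% were. Oasl2 rose by 0.75 ± 0.05 among libraries labelled sgArid1a, with 7.80 and 7.73 labelled IFN gamma, against 7.07 and 6.97 labelled PBS. Among those labelled sgScramble it differed by 0.04 ± 0.05, with 6.37 and 6.37 labelled IFN gamma and 6.32 and 6.33 labelled PBS. For Oasl2 the authors' deposited table gives 1.45 under the label sgArid1a and 0.43 under sgScramble; for Oasl1, below the level for a test here, that table gives -1.99 under sgScramble, with an adjusted p of 0.0078. Tested directly, this difference between the guide labels was 0.70 ± 0.07 for Oasl2 (limma adjusted p = 2.5e-05) and 0.24 ± 0.05 for Oas1g (limma adjusted p = 0.017), 2 of 6 members against 0.696% of genes. It did not pass for Oas1a (0.27, limma adjusted p = 0.077), Oas1b, Oas2 or Oas1c. Oas1g lost the call in 6 alternative settings, among them those without sgScramble PBS replicate 1, sgArid1a PBS replicate 1 or 2, or sgArid1a IFN gamma replicate 2, which left 1 member, and without sgScramble IFN gamma replicate 2 Oas1a gained one.

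**Figure D5:**
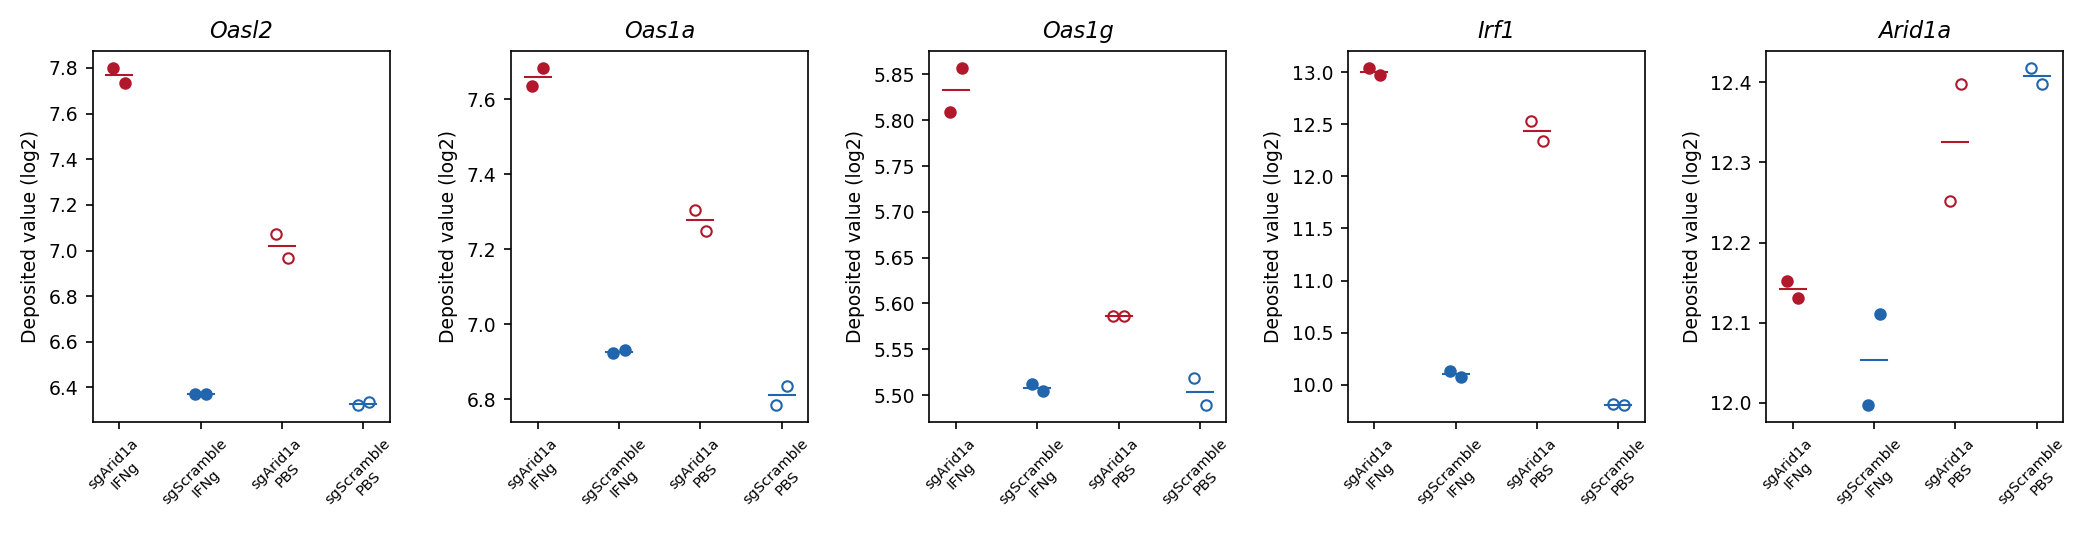
Deposited log2 values (vertical axes, not starting at 0) of Oasl2, Oas1a, Oas1g, Irf1 and Arid1a in the 8 libraries of the IFN gamma experiment; horizontal axes give the labels, points are libraries and short lines group means. Irf1 divides the libraries by the guide label, between 12.34 and 13.04 with sgArid1a and between 9.81 and 10.13 with sgScramble, while Arid1a does not divide them that way.

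Oas1a and Oas1c passed the level for a test in all 7 tables without shared libraries, and the genes most like them in pattern were listed from 10162 genes over 40 libraries, after each gene's table mean was removed. For Oas1a these were Isg15 (Pearson r = 0.94), Ifit1 (0.92) and Ifit3b (0.91), all interferon-stimulated genes. For Oas1c they were Trim34a (0.95), Ifit3b (0.91) and Ugdh (0.90). Without the IFN gamma experiment, over 32 libraries, Isg15 (0.94) and Trim34a (0.95) again came first. Oas1a and Oas1c correlated with each other at 0.84. Counts of the BD98 experiment entered as log2(CPM + 1) beside the authors' log2 values. Deviations were not rescaled, so experiments with large deviations weigh more in these correlations. Correlations without the BD98 experiment were not computed. The libraries share tables and groups, so these values only describe the likeness.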

How the data were processed

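Gene expression was measured by RNA sequencing of polyadenylated RNA with a stranded library kit. Reads were aligned with STAR 2.5.3a to GRCm38/mm10, per the submitters' processing notes. Exon counts per gene were made with HOMER and passed to its differential expression script, per the file headers; no strand option is recorded there. For the BD98 experiment the deposited values are raw exon counts, and for the other 7 tables the authors deposited log2 values normalised within the table; the headers do not name the transform, and the values look like a regularised logarithm. The log2 fold changes and adjusted p-values called the authors' are copied from the deposited tables.

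The members and the gene lists (interferon signalling, oligoadenylate pathway, other Oas1 paralogs, targeted genes and 12 cell type marker lists) were chosen with earlier results of these data known. All members were examined in every comparison, but the text does not name each of them there, and members not called or too low to test are among those left unnamed. Other genes come from these lists, except that the 3 genes of highest Pearson correlation are named for each member tested in all 7 tables that share no library. Log2 tables were fitted over all genes with limma 3.58.1 (trend) in R 4.3.3, after a filter at a table mean of 4, and counts with edgeR 4.0.16 (quasi-likelihood, TMM, filterByExpr); all groups of a table entered 1 fit, with Benjamini-Hochberg adjustment. Both fits were run on simulated data with the same noise setting for every gene. That run does not check the calls where genes or libraries vary unequally. Tables were normalised separately and were not compared with each other by test. Where groups are said not to overlap or to be separate, this describes the members' values only, because the share of all genes without overlap was not computed. Alternatives were no filter, median-centred libraries, no trend, other count methods (DESeq2 1.42.0, limma on log2(CPM + 1), RLE scaling), a replicate block, only the groups compared, and each library left out. The anti-IFNAR table repeats the 4 untreated libraries. The 4 total RNA libraries, 1 table of repeats and 10 columns of per-sample values that match no sample used here were not used. Some results of the lists are not reported here.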

Additional observations from a re-analysis of the deposited data

Results flagged for a closer look

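Oasl2 and Oas1g stood out because the difference between libraries labelled IFN gamma and PBS was itself different under the 2 guide labels, by the limma interaction term. For Oasl2 the difference was 0.70 larger on the log2 scale under the label sgArid1a than under sgScramble, with an adjusted p of 2.5e-05; this call held in every alternative setting run. For Oas1g it was 0.24 larger, with an adjusted p of 0.017, and the call was lost without sgScramble PBS replicate 1, sgArid1a PBS replicate 1, sgArid1a PBS replicate 2 or sgArid1a IFN gamma replicate 2. Both values belong to an experiment in which Arid1a did not differ by guide label and Irf1 differed more by guide label than by treatment label.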

How the results depend on the processing

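Of 191 counts of called members recomputed under an alternative setting, 156 stayed within 1.5 times the reported count, and of 938 member fold changes 851 kept their direction and call, 59 lost a call, 13 gained one and 15 changed sign. The DMSO contrast (1 member called) gave 0 with no filter and without the trend, 3 with centred libraries and 0 to 2 with 1 library left out. Ruxolitinib against sgArid1a DMSO (1) gave 0 with no filter, centred libraries, no trend, the replicate block or any library left out, and against sgScramble DMSO (0) it gave 1 with centred libraries and 0 to 1 with 1 left out. Anti-IFNAR against untreated sgArid1a (0) gave 2 when only the groups compared were fitted. With 1 library left out, Sting dKO against sgScramble (2) gave 1 to 3, BD98 with anti-IFNAR against DMSO (3) gave 1 to 2, the guide contrast under PBS (4) gave 2, and the interaction (2) gave 1 to 3. With no filter or without the trend, the guide contrast under PBS gave 2, IFN gamma against PBS in sgScramble (1) gave 2, also with centred libraries, and the interaction gave 1. The cause of these shifts was not tested.

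Every change of sign was in a difference that had not passed the test, and the values of opposite sign were at most 0.268 in size. With centred libraries these were 0.004 for Oas1g (anti-IFNAR against sgScramble), 0.007 for Oas1c (ruxolitinib against sgArid1a DMSO) and 0.013 for Oasl2 (ruxolitinib against sgScramble DMSO). With 1 library left out the values ranged from -0.035 to 0.056 (with -0.018 a further change of sign) for Oas1b in the DMSO contrast, from -0.139 to 0.014 for Oas1a and from -0.055 to 0.032 (also 0.022) for Oas1g with anti-IFNAR against sgScramble, from -0.066 to 0.043 (also 0.034) for Oas1c and from -0.052 to 0.011 (also 0.003) for Oasl2 in the ruxolitinib contrasts above, from -0.268 to 1.074 for Oas2 with BD98 and anti-IFNAR against DMSO, and from -0.010 to 0.019 for Oas1g and from -0.003 to 0.021 for Oas2 with IFN gamma against PBS in sgScramble.

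Centring moved the share of higher genes among all called genes to 54.8% against 43.7% (Sting dKO against sgArid1a), 59.1% against 47.8% (Sting dKO against sgScramble), 54.6% against 39.3% (ruxolitinib against sgScramble DMSO), 52.4% against 39.3% (MC38), 59.5% against 48.4% (MEFs), 75.9% against 87.2% (guide under PBS) and 43.9% against 59.9% (guide under IFN gamma). The correlation of same-numbered libraries' deviations ran from -0.51 to 0.686 over 21 pairs of groups. It was highest in MEFs, where the replicates numbered 1 (21.4 and 21.9 M reads) were also deeper than those numbered 2 (11 and 12.1 M), and where the replicate block raised the called genes to 5013, against 1183 without it, with 6 members called in both. No label says what the numbers share, and with 2 pairs a table they were not taken to pair libraries. The replicate block kept the count of called members within 1.5 times in 18 of 19 comparisons, and 3 of 97 fold changes lost a call: Oas1c in untreated cultures (adjusted p = 0.11) and in Cgas dKO against sgScramble (0.071), and Oas1a with ruxolitinib against sgArid1a DMSO (0.067). No paired analysis was possible because the Sting dKO columns carry no number shared with the other groups, for the contrasts of that group. With 2 libraries a group, a left-out library leaves a lone one that is assumed to vary like the others.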

Other observations

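The balance between Oas1g and Oas1a, the pair with the most shared sequence, differed between tables more than between the libraries of most tables. The log2 level of Oas1g minus that of Oas1a, both per kilobase, lay between -2.13 and -1.86 in tumors, between -1.96 and -1.40 in the IFN gamma experiment, between -1.69 and -1.52 in the ruxolitinib experiment and between -2.22 and -1.02 in the BD98 experiment. It lay between -0.86 and -0.13 in untreated and double-knockout cultures, between -0.21 and -0.01 in the anti-IFNAR table, between -0.12 and -0.01 in MEFs and between 0.31 and 0.52 in MC38 cells. The anti-IFNAR table holds the same untreated sgArid1a and sgScramble libraries as the double-knockout table. For these same libraries the balance was not the same in both. The sgScramble libraries stood at -0.55 and -0.13 with the double knockouts and at -0.21 and -0.01 in the anti-IFNAR table. The sgArid1a libraries stood at -0.27 and -0.18, and at -0.09 and -0.03, in the same order. Read length, the handling of reads that match both genes and the drawing together of low values were not compared between tables, so no order between tables was tested.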
